A study of Mus musculus with 6 samples.

Results

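The 7 genes described here encode enzymes that make cysteine from homocysteine (Cbs and Cth), build glutathione (Gclc, Gclm and Gss), reduce it (Gsr) and degrade it (Chac1). They were listed by name, with earlier results of these arrays known, and for each the brightest array feature carrying exactly 1 gene symbol was selected on its mean intensity over all arrays. All 7 were measured, among 22180 genes in all. Each had 1 such feature (a transcript cluster, the group of probes summarized into 1 value), so the selection on intensity decided nothing here. RNA came from the RET mouse melanoma line, strain C57BL\6 in the labels. By the genotype label a non-targeting shRNA was present in 3 control cultures, whose titles carry GFP with no explanation, and a hairpin against Angpt2, named Angpt2 shRNA-1, in the other 3 (called silenced cultures). Cells were seeded in equal numbers, grown for 24 h in high-glucose medium with serum and non-essential amino acids, and 100 ng of RNA per culture was hybridised to 1 Affymetrix Mouse Gene 2.0 ST array. The samples hold 1 hairpin and no rescue, so effects of Angpt2 loss, of this hairpin and of differences between the 2 sets of cells cannot be told apart. The replicates are labelled as biological, without saying what they share.

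Transsulfuration moves sulfur from methionine to cysteine. Cbs, cystathionine beta-synthase, joins homocysteine and serine, and Cth, cystathionine gamma-lyase, splits the product and releases cysteine. Glutamate-cysteine ligase, with Gclc as its catalytic and Gclm as its modifier subunit, then joins cysteine to glutamate, and Gss, glutathione synthetase, adds glycine. Gsr, glutathione reductase, returns oxidized glutathione to its reduced form, and Chac1 degrades reduced glutathione inside the cell. In textbook accounts Chac1 and Cth are targets of ATF4, the transcription factor of the integrated stress response, while Gclc, Gclm and Gsr are targets of NRF2, the main regulator of antioxidant genes.

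Array medians lay between 74.5 and 76.2 intensity units, and log2 values of any 2 arrays correlated at 0.978 to 0.990. Angpt2 read 195, 372 and 326 in control replicates 1, 2 and 3 and 100.2, 122 and 122 in the silenced cultures, with no overlap (log2 difference -1.33, SE 0.21, limma adjusted p = 1.00, and 0.0116 without control replicate 1). The melanocyte markers Tyrp1, Dct, Pmel and Mlana read between 5068 and 9651, whereas Kit and Ednrb did not exceed 110. No marker of macrophages, endothelium, fibroblasts, T cells or keratinocytes exceeded 175 (Cd68), and 24 of these 30 markers stayed under 100 on every array. Control replicate 1 was looked at separately after its values were seen, and the following count was made for no other array. On that array 53 genes, or 0.239% of those tested, were more than 2-fold above the median of the other 5 arrays, and 2 of the 7 members, Cth and Chac1, were among them. Results that rest on this array are given with and without it.

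No difference between the groups was detectable for any of the 7 genes with these 6 arrays. At a limma adjusted p of 0.05, 0 of 7 members were called, against 0% of all genes tested. At an unadjusted limma p under 0.05 the count was also 0 of 7, against 3.76% of all genes. Groups that did not overlap were found for 0 of 7 members and for 9.01% of all genes. In such bulk samples fewer cells and less RNA per cell cannot be told apart. Of the members, 2 had positive and 5 negative log2 differences, silenced minus control, with a median of -0.08, and over all genes the median was -0.01. Without control replicate 1, 6 of 7 were positive with a median of 0.06. What separated the members was their spread over the 6 cultures: Cth and Chac1 varied 4.44-fold and 6.78-fold, and the other 5 genes by at most 1.28-fold.

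**Figure D1:**
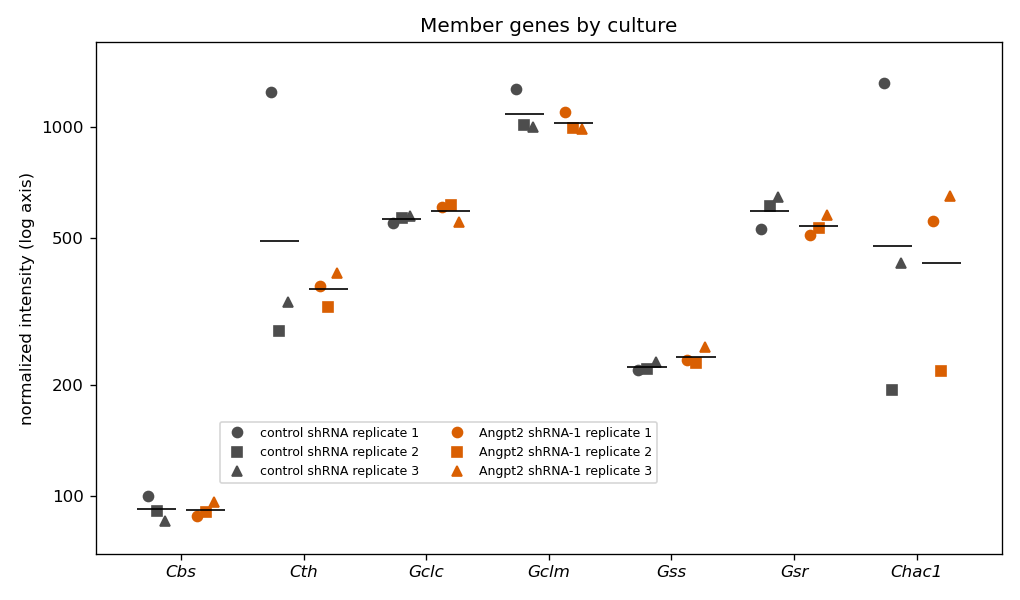
Normalized intensity (log axis) of the 7 member genes in each of the 6 cultures, with grey points for control shRNA, orange points for Angpt2 shRNA-1, the marker shape giving the replicate number and a bar at the geometric mean of each group. Cth and Chac1 are highest in control replicate 1 (1248 and 1316), and the groups overlap for every gene.

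Cbs, the first enzyme of transsulfuration, was dim. Its intensity was 100.3, 91.5 and 85.6 in control replicates 1, 2 and 3 and 88.7, 91.0 and 96.4 in silenced replicates 1, 2 and 3. All 6 values lay just above the array medians, the table has no detection calls, and so this signal cannot be told from background. The silenced values fell within the control range. The log2 difference was -0.01 (SE 0.09, 95% confidence interval -0.21 to 0.20), with group means of 6.53 ± 0.11 and 6.52 ± 0.06 (SD, n = 3 arrays each).

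Cth, the second enzyme, was clearly above the array medians in every culture. Its intensity was 1248, 281 and 337 in control replicates 1, 2 and 3 and 372, 325 and 402 in the silenced cultures. Control replicate 1 was 3.11-fold above the next highest culture, while the other 2 controls included the lowest value of all 6. The group means were 8.94 ± 1.17 and 8.51 ± 0.16 on the log2 scale (SD, n = 3), and the wide control SD came from that 1 array. The log2 difference was -0.43 (SE 0.46, 95% interval -1.46 to 0.61, limma adjusted p = 1.00, exact two-sided permutation p = 0.9, where 3 against 3 cultures cannot go below 0.1). Without control replicate 1 it turned to 0.25 (SE 0.12, 95% interval -0.04 to 0.53, limma adjusted p = 0.992), and the remaining cultures spanned only 1.43-fold. Within replicate numbers 1, 2 and 3 the difference was -1.75, 0.21 and 0.25.

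Gclc, the catalytic subunit of the first step of glutathione synthesis, was the steadiest member over all 6 cultures. Without control replicate 1 the SD of log2 intensity was 0.067 for Gclc, above 0.060 for Gclm and 0.063 for Cbs. It read 549, 570 and 576 in the controls and 607, 618 and 553 in the silenced cultures. The lowest and the next lowest value came from 1 culture of each group, so the groups overlapped, and the range over all 6 was 1.13-fold. The log2 difference was 0.07 (SE 0.08), and its 95% interval reached from 0.919-fold to 1.20-fold. Control replicate 1, high for Cth, had the lowest Gclc value.

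Gclm, the modifier subunit, was 1268, 1014 and 1005 in the controls and 1098, 998 and 993 in the silenced cultures. Replicate 1 was the highest of its group in both groups, and control replicate 1 was 1.26-fold above the median of the other 5 cultures. The log2 difference was -0.08 (SE 0.11, 95% interval -0.33 to 0.16) and 0.03 (SE 0.09) without control replicate 1, after which the 5 cultures spanned 1.11-fold. The 2 subunits of the ligase thus did not share their highest culture, and Pearson's r between them was -0.33 over the 6 cultures (Spearman's rho -0.26, exact permutation p = 0.514 and 0.658). It was 0.45 without control replicate 1 and -0.61 without silenced replicates 1 and 2, so its sign depended on which cultures entered.

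RefSeq promoter windows (GRCm38.p6) were found for 4 of the 7 members, Chac1, Gclm, Gss and Cbs. The 250 bases before the start in each window were searched on both strands for the core of the antioxidant response element, TGACNNNGC, to which NRF2 binds, and for the composite element of ATF4 and C/EBP factors, TGATGNAA. The stretch of Gclm up to its annotated span is shown because it holds a match to the first motif, in capitals, read from the opposite strand. It lies on the plus strand at chr3:122245307-122245486, with the match at 122245423 to 122245431, 134 to 126 bases before the start used.
Gclm: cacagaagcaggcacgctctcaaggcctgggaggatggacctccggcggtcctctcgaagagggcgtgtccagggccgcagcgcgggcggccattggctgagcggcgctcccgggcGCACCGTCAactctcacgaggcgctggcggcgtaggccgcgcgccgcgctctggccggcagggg

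The antioxidant core was present in 10.2% of 32851 RefSeq windows of the same length, and the ATF4 composite in 3.45%. Of the 4 windows searched, that of Gclm alone held the antioxidant core and that of Chac1 alone the ATF4 composite. The windows of Gss and Cbs held neither set of letters. No window held both motifs, so an overlap between them could not occur.

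Gss, which completes glutathione, read 219, 222 and 231 in the controls and 234, 230 and 255 in the silenced cultures. The highest control lay just above the lowest silenced culture, which was the whole overlap. The log2 difference was 0.10 (SE 0.08, 95% interval from 0.939-fold to 1.22-fold, exact two-sided permutation p = 0.2), in the same direction within each of the 3 replicate numbers (0.09, 0.05 and 0.14), and it did not pass the test (limma adjusted p = 1.00).

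Gsr, the recycling enzyme, was 532, 612 and 648 in the controls and 512, 534 and 579 in the silenced cultures. Silenced cultures were lower within each replicate number, by log2 differences of -0.06, -0.20 and -0.16. The fitted difference was -0.14 (SE 0.10, 95% interval from 0.777-fold to 1.06-fold, limma adjusted p = 1.00). Control replicate 1, the lowest control, was the only one within the silenced range. Without it the difference was -0.22 (SE 0.09, 95% interval -0.44 to -0.003, limma unadjusted p = 0.0474 and adjusted p = 0.992).

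**Figure D2:**
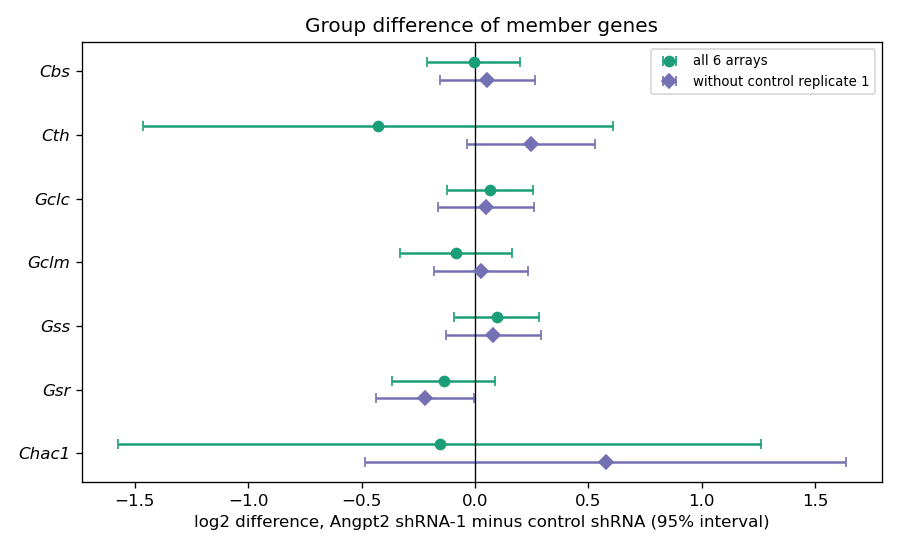
Log2 difference between silenced and control cultures for each member with its 95% interval from limma, over all 6 arrays (green circles) and without control replicate 1 (purple diamonds). The intervals of Cth and Chac1 are the widest of the 7, and the estimates of Cth, Chac1, Gclm and Cbs change sign without that array.

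Chac1, the glutathione-degrading enzyme, varied most among the members. Its intensity was 1316, 194 and 428 in control replicates 1, 2 and 3 and 558, 218 and 650 in the silenced cultures. Replicate 2 was the lowest culture of each group, and the silenced values lay wholly within the control range. The group means were 8.90 ± 1.39 and 8.75 ± 0.85 on the log2 scale (SD, n = 3), and the difference was -0.15 (SE 0.63, limma adjusted p = 1.00, exact two-sided permutation p = 1). Its 95% interval, from 0.336-fold to 2.40-fold, allows differences of over 2-fold in either direction. In an alternative fit that paired arrays by replicate number the interval was narrower, -0.80 to 0.495 on the log2 scale (SE 0.28). Without control replicate 1 the difference turned to 0.58 (SE 0.46), and without both arrays of replicate 1 it was 0.39 (SE 0.51). It was also positive without Angpt2 shRNA-1 replicate 2, at 0.33 (SE 0.64), and -0.81 without control replicate 2. Unlike Cth, Chac1 still spanned 3.35-fold over the 5 cultures left after removing control replicate 1. Within replicate numbers 1, 2 and 3 the difference was -1.24, 0.17 and 0.60.

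The Chac1 window is shown for its match to the ATF4 composite motif, in capitals and read from the opposite strand. It lies on the plus strand of GRCm38.p6 at chr2:119350992-119351241, with the match at 119351049 to 119351056, 193 to 186 bases before the start. The match is a description of these letters, and ATF4 binding was not measured.
Chac1: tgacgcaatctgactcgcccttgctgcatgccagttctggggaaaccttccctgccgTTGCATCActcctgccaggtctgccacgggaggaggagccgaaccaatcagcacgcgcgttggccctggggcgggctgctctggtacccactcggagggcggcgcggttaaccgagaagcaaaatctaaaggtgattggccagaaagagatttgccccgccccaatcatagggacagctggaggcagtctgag

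Over the 6 cultures the SD of log2 intensity was 1.03 for Chac1 and 0.78 for Cth, larger than for 99.98% and 99.9% of all genes tested. It was 0.14 for Gclm and 0.13 for Gsr, larger than for 60.3% and 56.6% of genes. It was 0.08 for Cbs, 0.08 for Gss and 0.07 for Gclc, larger than for 19.5%, 15.6% and 11.9%. Spread depends on signal level, so each member was also placed among genes within 0.25 log2 units of its mean. Chac1 then exceeded 100% of 1307 genes and Cth 99.6% of 1375, whereas Gss exceeded 8.83% of 1483 and Gclc 8.41% of 1094. Without control replicate 1 the SD of Chac1 was 0.79, still above 99.96% of genes, while that of Cth was 0.20, above 88.5%, and that of Gclm was 0.06, above 11.3%. The spread of Cth thus narrowed without 1 culture, and that of Chac1 stayed wide.

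**Figure D3:**
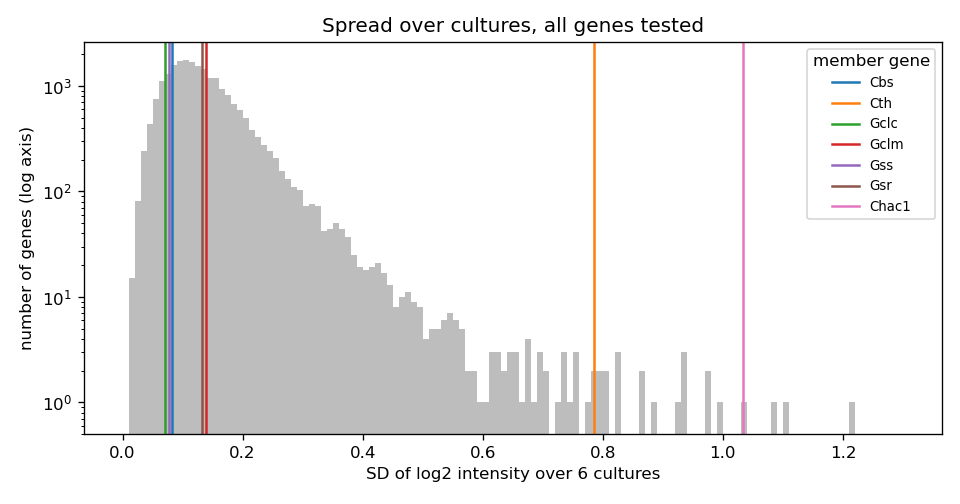
Histogram of the SD of log2 intensity over the 6 cultures for all 22180 genes (number of genes on a log axis), with a coloured line at the SD of each member. Cth (0.78) and Chac1 (1.03) lie in the far right tail, and the other 5 members lie between 0.07 and 0.14, in the bulk of the genes.

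Cth and Chac1 ranked the 6 cultures in the same order. From low to high this was control replicate 2, silenced replicate 2, control replicate 3, silenced replicate 1, silenced replicate 3 and control replicate 1, so the order did not follow the groups. Pearson's r of log2 values was 0.85 and Spearman's rho 1.00, each with an exact permutation p of 0.0028, the smallest that 6 cultures can give, and an adjusted p of 0.0583 over the 21 pairs of members. Without the 2 cultures farthest from the median of Cth, control replicates 1 and 2, r was 0.89 over the remaining 4, and without control replicate 1 alone it was 0.93. The members were listed with these arrays' results known, so this is a description of these cultures. The 2 genes still differed in size, since Cth lay within 1.43-fold over the 5 cultures other than control replicate 1 and Chac1 did not.

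**Figure D4:**
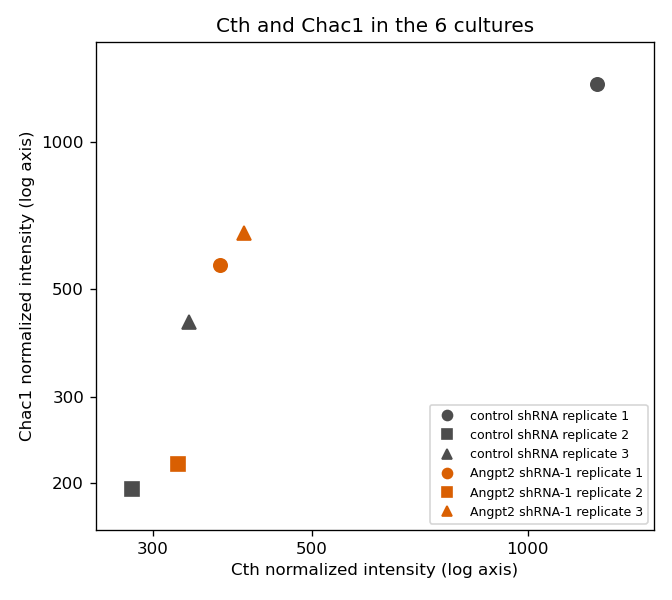
Intensity of Chac1 against that of Cth in the 6 cultures (both axes logarithmic), with grey for control shRNA, orange for Angpt2 shRNA-1 and the marker shape for the replicate number. The points rise in 1 order (rho 1.00), with control replicate 1 far to the right.

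By rho no other pair of members varied together to this extent. Of the 21 pairs 8 had a positive r and 13 a negative one, and 0 passed an adjusted p of 0.05 by r or by rho, with 1 pair at an unadjusted p under 0.05 by each. Cth and Gclm had the highest r, 0.92, but a rho of 0.26 (exact permutation p = 0.131 and 0.658, adjusted p = 0.525 and 0.864), and r was 0.20 without control replicates 1 and 2. Cth and Cbs had an r of 0.75 and a rho of 0.49 (exact permutation p = 0.119 and 0.356, adjusted p = 0.525 and 0.747), with r at 0.65 without control replicates 1 and 2. For Cth and Gclm r was 0.19, and for Cth and Cbs 0.28, without control replicate 1 alone. Leaving out that array raised r to 0.91 for Cth and Gss and to 0.80 for Chac1 and Gss, from -0.30 and 0.12. The sign of r turned in 8 of 21 pairs when the 2 farthest cultures were left out, among them Cth and Gss, from -0.30 to 0.89.

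Deviations from each gene's mean over the 6 cultures show the same division. On control replicate 1 Cth was at 1.56 and Chac1 at 1.54 on the log2 scale, Gclm at 0.26 and Cbs at 0.12, while Gclc (-0.07), Gss (-0.08) and Gsr (-0.09) were slightly negative. On replicate 2, Chac1 was at -1.22 in the control and -1.05 in the silenced culture, and Cth at -0.59 and -0.38. Gclm (-0.06 and -0.09), Gclc (-0.02 and 0.10) and Gss (-0.06 and -0.01) lay closer to their means there.

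The median of a list of ATF4 response genes, which does not include Cth or Chac1, ordered the cultures as those 2 genes did. Of 21 measured genes on this list 17 were highest on control replicate 1, against 25.8% of all genes, and 10 exceeded 2-fold over the median of the other 5, against 0.239%. The list was drawn up with these arrays' results known, so these counts are not independent evidence. Its median deviation was 0.89 on control replicate 1, -0.51 and -0.39 on replicate 2 of the control and silenced groups, -0.09 and 0.16 on replicate 3, and -0.04 on silenced replicate 1. Atf4 itself, named after its values were seen, read 2056, 795 and 1245 in the controls and 1548, 1257 and 1694 in the silenced cultures. Slc7a11, the cystine transporter subunit and the member of this list with the largest difference over all 6 arrays, read 1184, 215 and 233 in the controls and 327, 166 and 308 in the silenced cultures (log2 difference -0.61, SE 0.58, and 0.20 without control replicate 1). Without that array Sesn2, a stress-induced regulator of growth signalling, had the largest difference on the list, 0.77. Between groups 0 of 21 were called, with 4 positive and 17 negative and a median of -0.17, and without control replicate 1 there were 18 positive, a median of 0.18 and again 0 called. What set control replicate 1 apart was not tested.

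The list of NRF2 response genes, which holds no member, was level by comparison. Of 16 measured genes 5 were highest on control replicate 1, and the list's median deviation stayed between -0.05 and 0.08 on all 6 arrays. Between groups 0 were called, with 5 positive, 11 negative and a median log2 difference of -0.04 (-0.01 without control replicate 1). Exceptions within the list were Slc7a11 and the heme oxygenase gene Hmox1, which exceeded 2-fold on control replicate 1. Slc7a11 is also on the ATF4 list, and which regulator acted on these genes was not tested. Hmox1 read 1569, 382 and 789 in the controls and 734, 354 and 1004 in the silenced cultures.

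**Figure D5:**
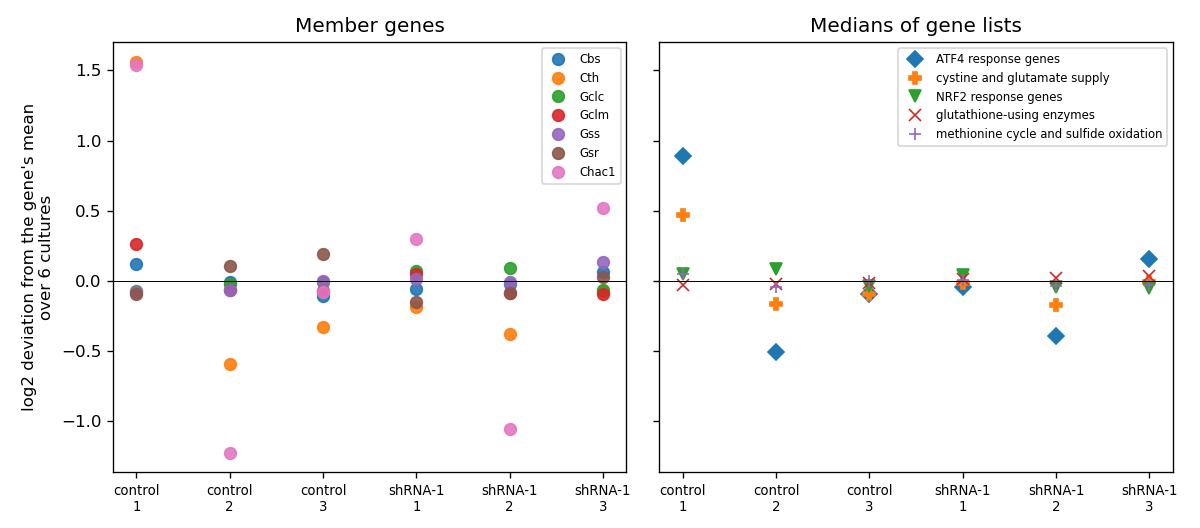
Log2 deviation from the gene's mean over the 6 cultures (vertical axis) in each culture (horizontal axis, control and Angpt2 shRNA-1 replicates 1 to 3), for the 7 members on the left and as medians of 5 gene lists on the right. On control replicate 1 Cth (1.56), Chac1 (1.54) and the ATF4 response list (0.89) are high, while the NRF2 list and the glutathione-using enzymes stay near 0.

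No gene in the reactions around the members was called, as for all genes tested. Of 17 measured genes of the methionine cycle and sulfide oxidation 0 were called, with 10 positive and 7 negative and a median log2 difference of 0.03. On this list 2 of 17 had an unadjusted limma p under 0.05 and 3 of 17 had groups that did not overlap, against 3.76% and 9.01% of all genes. Mtrr, which reactivates methionine synthase, had the largest difference over all 6 arrays, -0.24 (SE 0.09) and -0.19 without control replicate 1, and its groups did not overlap. Without that array Mpst, which transfers sulfur from mercaptopyruvate, was farther from 0, at 0.29. Of 11 genes listed around cysteine and taurine metabolism 0 were called, with 4 positive and a median of -0.02. Ppcdc, an enzyme of coenzyme A synthesis, had the largest difference over all 6 arrays, -0.16 (SE 0.09), also with no overlap. Without control replicate 1 there were 5 positive and a median of -0.01, and Cars (0.24) was farther from 0 than Ppcdc (-0.12). Of 12 other genes of glutathione breakdown and the gamma-glutamyl cycle 0 were called, with 8 positive and a median of 0.06, which was -0.01 with 5 positive without control replicate 1. Oplah, which opens the ring of 5-oxoproline, was at 0.16 (SE 0.10). It read 75.2 to 99.4, near the array medians, so its signal cannot be told from background. Under 100 on every array were 4 of the 17, 2 of the 11 and 5 of the 12 genes, and these dim genes enter the counts and medians.

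Chac2, the relative of Chac1 known for its steady expression, read 186, 136 and 178 in the controls and 164, 174 and 179 in the silenced cultures. It was highest on control replicate 1, as Chac1 was, but only 1.04-fold above the next culture. Its log2 difference was 0.06 (SE 0.12). Chac1 on the same array was 2.02-fold above the next culture.

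Among enzymes that use glutathione, Gsto1 had the largest difference over all 6 arrays, and without control replicate 1 it was Gstm2 (0.78, against 0.67 for Gsto1). That Gstm2 value rests on a low reading in control replicate 3, 176 against 591 in control replicate 2. Of 23 measured genes 0 were called, with 14 positive and a median of 0.07, and 3 at an unadjusted limma p under 0.05, where 3.76% of all genes passed. On every array 5 of the 23 stayed under 100. Gsto1, glutathione transferase omega, read 411, 349 and 380 in the controls and 493, 681 and 574 in the silenced cultures, with no overlap. It was 1.52-fold higher in group means (log2 difference 0.61, SE 0.13, 95% interval 0.32 to 0.89), ranked number 12 of 22180 genes by p, and did not pass over all genes (limma adjusted p = 1.00). Of 13 genes that supply cystine, glutamate, glycine and serine 0 were called, with 3 positive and a median of -0.08, and without control replicate 1 with 8 positive and a median of 0.06. Of these 13 genes 4 exceeded 2-fold on control replicate 1, and the list's median deviation there was 0.47.

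Among 277 other genes above the median level that spanned at least 2-fold over the arrays, those most like Cth over the 6 cultures were Ghitm, Dhrs7, Apobec1, Iah1 and Rab39b, with Pearson's r between 0.993 and 0.998. Without control replicate 1 their r with Cth was 0.906 to 0.968. Iah1, the brightest of them relative to the other cultures on that array, read 910, 239 and 319 in the controls and 305, 265 and 341 in the silenced cultures. Those most like Chac1 were Gpt2, Cars, Trib3, Asns and Hmox1, with r between 0.981 and 0.994, and between 0.964 and 0.989 without control replicate 1. Gpt2, the closest, read 843, 229 and 394 in the controls and 426, 221 and 485 in the silenced cultures. With 6 points and many genes, high values of r arise readily, and they are given only as a description.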

How the data were processed

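The authors deposited 1 table of intensity values on a linear scale, with 1 column per array and already normalized. Background correction, summarization and normalization are not given in the sources used here. Of 41345 transcript clusters 40425 had values on all arrays, and 23521 of these carried exactly 1 symbol in the platform annotation, giving 22180 genes. Values were taken to log2 with no pseudocount and compared between groups with limma 3.58.1 in R 4.3.3, and the two-sided p-values were adjusted over the whole table by the Benjamini-Hochberg method, calling genes under 0.05. The fit was tested on simulated data. The number of arrays limits the precision, and p-values measure the spread between these cultures, which may be partly technical.

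The members and gene lists were chosen with earlier results of these data known. Of the list genes, 3 were matched through gene IDs to older symbols, and those not matched were not analysed here. Genes named are the members, Angpt2, the member of each pathway list with the largest absolute difference, and for members spanning at least 2-fold the 5 genes of highest r. Others were named after their values were seen.

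Both groups carry replicate numbers 1 to 3. Arrays of the same number deviated together from their group means, with correlations over genes of 0.13, 0.21 and 0.14. For arrays of unlike numbers the correlations ran from -0.19 to 0.06. Deviations within a group cancel for each gene, so these correlations depend on each other. The numbers were treated as pairs in the alternative fit with the replicate block. Other alternatives were 2 scalings, 2 filters on dim genes, the mean of all clusters, all clusters, array weights, trend with robust eBayes, an added 1 or 16 before log2, and leaving out each array or both arrays of a number.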

Additional observations from a re-analysis of the deposited data

How the results depend on the processing

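In all 20 alternatives 0 members were called. With the replicate block 2 genes passed over all genes, and no member changed its call. With quantile normalization, median centring, or trend and robust options 1 gene passed, and with arrays left out 0 to 2. Cbs turned from -0.005 to 0.010 with quantile normalization, 0.011 with median centring and 0.015 with array weights. With arrays left out, log2 differences ranged from -0.094 to 0.082 for Cbs, -0.81 to 0.58 for Chac1, -0.83 to 0.25 for Cth and -0.14 to 0.026 for Gclm. Those of Gclc, Gss and Gsr kept their direction throughout, at 0.03 to 0.13, 0.05 to 0.13 and -0.22 to -0.08. Quantile normalization and median centring moved the median of all genes by 0.02. Signal over background limits Cbs, which lay near the array medians.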

Other observations

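The glutathione transferases of the mu class, noticed after their values were seen, were low in 1 culture that did not stand apart for Cth or Chac1. Gstm2 read 722, 591 and 176 in control replicates 1, 2 and 3 and 535, 553 and 576 in the silenced cultures. Gstm1 read 344, 355 and 169 in the controls and 329, 316 and 279 in the silenced cultures. Control replicate 3 was thus the lowest for both genes. The genes are close paralogs and their probes may share signal, so they are not separate measurements, and neither group difference passed the test (limma adjusted p = 1.00 each, with log2 differences of 0.40, SE 0.43, for Gstm2 and 0.16, SE 0.25, for Gstm1). Without control replicate 1 the differences were 0.78 and 0.33. For both genes control replicates 1 and 2 read above every silenced culture, so the positive differences rest on control replicate 3.

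A second, dimmer cluster of Slc7a11 gave the same highest culture as the one used. It read 171, 82.1 and 66.2 in the controls and 86.9, 60.9 and 61.6 in the silenced cultures. Apart from control replicate 1 these values lay near or under the array medians, so they cannot be told from background.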
